A study of Mus musculus with 2 samples.

Results

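The miRNA genes Mir196a-1, Mir196a-2, Mir196b and Mir615 lie among the central to posterior genes of the Hox clusters. They were chosen by name, through their Ensembl identifiers in GENCODE, and made up 4 of the 1973 miRNA genes counted. Small RNAs below a stated size range of 30 (no unit given) were sequenced from the neural tube of B6NCrl mouse embryos at embryonic day 14.5, when the tissue is forming the brain and spinal cord. The 2 libraries formed 1 group: replicate 1 was pup 1 of dam 1 and replicate 2 was pup 1 of dam 2, with no treatment and no second tissue or age. The labels describe each sample as 1 neural tube but give its sex as pooled male and female, and they do not say which stretch of the body axis was taken. The separate dams make the libraries biological samples, yet with 1 library per dam no test between litters was possible, and no p-value is given.

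Hox genes encode transcription factors that set position along the body axis, and those at the 5′ end of each cluster act in the more posterior parts of the embryo. A miRNA is cut as a short mature strand from a hairpin transcript, and it represses messenger RNAs mainly through its seed, bases 2 to 8. MiR-196 is known for restraining Hox genes in the posterior trunk and limb, with Hoxb8 its best-described target. MiR-615 comes from a gene inside Hoxc5 and is less well studied.

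The mature sequences are shown because they decide which genes share a seed and which reads can be told apart. RefSeq entries on GRCm38.p6 matched all 4 genes. Capitals mark the seed, bases 2 to 8, and each strand is written 5′ to 3′.
miR-196a-5p: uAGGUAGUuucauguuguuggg
miR-196b-5p: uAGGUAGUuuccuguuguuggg
miR-196a-1-3p: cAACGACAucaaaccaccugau
miR-196a-2-3p: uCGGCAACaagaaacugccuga
miR-196b-3p: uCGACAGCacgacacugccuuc
miR-615-5p: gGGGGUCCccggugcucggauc
miR-615-3p: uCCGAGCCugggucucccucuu
let-7g-5p: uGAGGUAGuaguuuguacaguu

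The miR-196a-5p and miR-196b-5p strands had the same seed, shared by no other of the 1679 mature miRNA names in the RefSeq table. They differed by 1 base, A12C, counted from the 5′ end of miR-196a-5p. The 3 miRNA strands from the other arm of the miR-196 hairpins each had a seed of their own, as did both strands of miR-615. Let-7g-5p, from the let-7 family that rises as tissues mature, is shown because the 7 seed letters of miR-196 recur in it at bases 3 to 9, 1 base further along than its own seed.

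Mir196a-1 and Mir196a-2 both encode miR-196a-5p, which decides what their counts can hold. In the hairpin sequences, printed here to show what the genes share, capitals mark miR-196a-5p, or miR-196b-5p in the last.
Mir196a-1: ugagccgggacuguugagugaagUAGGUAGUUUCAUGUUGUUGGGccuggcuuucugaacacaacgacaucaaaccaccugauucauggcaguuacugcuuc
Mir196a-2: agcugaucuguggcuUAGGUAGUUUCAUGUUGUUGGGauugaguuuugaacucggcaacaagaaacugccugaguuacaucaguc
Mir196b: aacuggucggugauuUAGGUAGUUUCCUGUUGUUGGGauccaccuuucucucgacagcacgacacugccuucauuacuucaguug

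The longest stretch common to the Mir196a-1 and Mir196a-2 hairpins was 22 bases, exactly the mature strand. The base before it was G in Mir196a-1 and U in Mir196a-2, and the base after it was C and A. A read of miR-196a-5p that ends within those 22 bases therefore fits both genes. Reads at several positions entered no gene count in these tables and took 32.4% of all reads in replicate 1 and 33.3% in replicate 2. The counts of Mir196a-1 and Mir196a-2 can thus hold reads of other parts of the hairpin, such as the 3p strand, or reads that run past the shared bases. Single reads were not examined, so the share of each kind is not known. The level of miR-196a-5p itself cannot be read from these counts. Mir196b shared at most 12 bases in a row with either hairpin, so its full-length reads differ from those of the other miR-196 genes. The mature 5p strands differ by that 1 base alone, and the sources used here do not give the mismatches allowed in alignment, so what the single-position counts of all 3 genes hold depends on that setting. More than 1 gene encoded 53 of the 1679 mature names.

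The 3 miR-196 genes lie beside the ninth-group Hox gene of 3 clusters, while Mir615 lies further 3′ (positions on GRCm38, mm10). Mir196b lies on chromosome 6 at 52230081 to 52230165, on the minus strand, in an exon of 2 noncoding transcripts of Hoxa9 and 1031 bases from Hoxa10. Mir196a-1 lies on chromosome 11 at 96265164 to 96265265, on the plus strand, outside any other annotated transcript, between Hoxb13 and Hoxb9 and 6191 bases from Hoxb9. Mir196a-2 lies on chromosome 15 at 102973350 to 102973434, on the plus strand, between Hoxc10 and Hoxc9, 1456 and 3004 bases away. It also falls in an intron of a long noncoding transcript of Hoxc5. Mir615 lies on chromosome 15 at 103014910 to 103015001, on the plus strand, between Hoxc6 and Hoxc4 and in an intron of Hoxc5. That long Hoxc5 transcript spans Mir615 as well. The Hoxd cluster had no miR-196 gene. The only other miRNA genes of the table within the clusters were Mir10a, 992 bases from Hoxb4, and Mir10b, in an intron of Hoxd3 and Hoxd4. Gm44463, in the Hoxd cluster, was not analysed here.

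**Figure D1:**
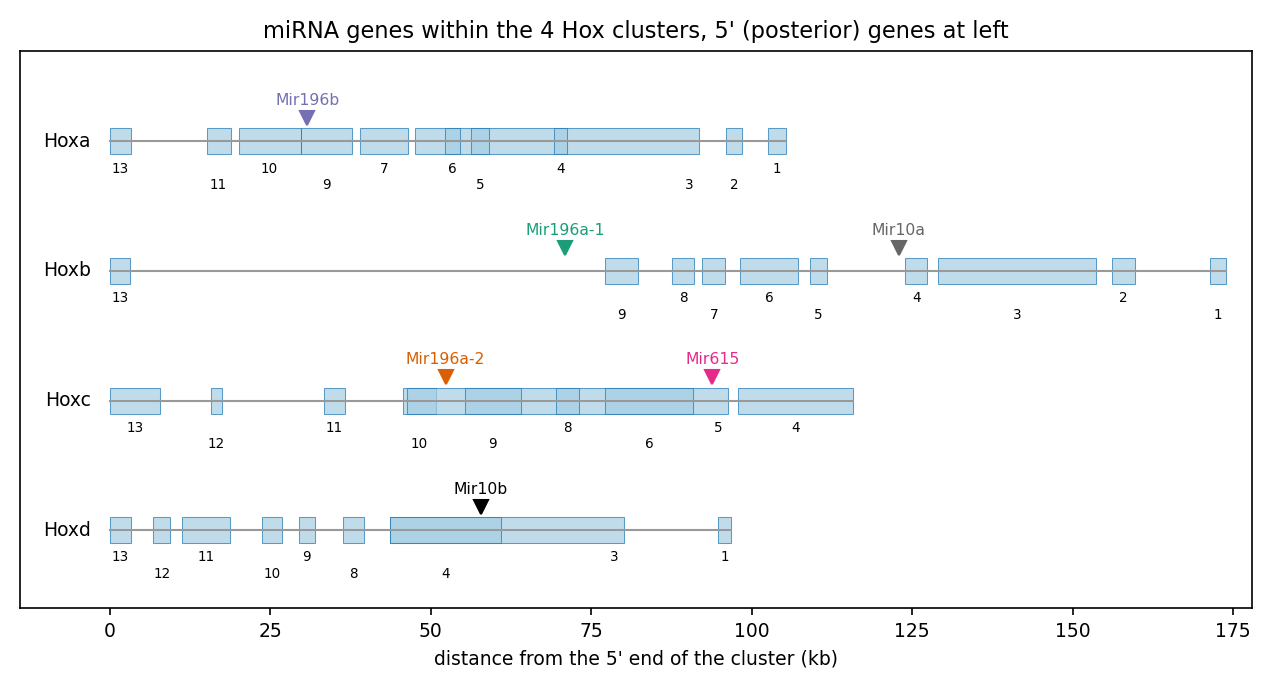
Map of the 4 Hox clusters with distance in kb from the 5′ end of each on the x axis; boxes are annotated Hox genes with their numbers and triangles are miRNA genes. Mir196b, Mir196a-1 and Mir196a-2 lie close to the ninth-group Hox gene of the Hoxa, Hoxb and Hoxc clusters, while Mir615, Mir10a and Mir10b lie among lower-numbered Hox genes.

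The best-described target shows how the mature strand pairs. Of 21066 genes with an annotated 3′ UTR, Hoxb8 alone held a stretch with 21 of 22 bases complementary to miR-196a-5p, and the next best genes reached 17. The stretch lies on chromosome 11 at 96284888 to 96284909, plus strand. It is shown as DNA of the messenger strand, with the bases that face the seed in capitals.
Hoxb8 3′ UTR: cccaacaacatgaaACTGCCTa

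The exception was base 5 of miR-196a-5p, a U that faces a G. The exact complement of the miR-196 seed, ACTACCT on the messenger strand, is absent from that stretch for the same reason. It occurred in the 3′ UTR of 9 of 39 Hox genes (23.1%), among them Hoxa7, Hoxa9 and Hoxc8, and of 7.75% of all genes with a 3′ UTR. The longest annotated 3′ UTR had a median of 966 bases for Hox genes and 1092 bases for all genes. The complement of the miR-615-3p seed, GGCTCGG, occurred in 1 of 39 Hox genes, Hoxb4, and in 3.27% of all genes. These are matches of letters, and no messenger RNA was measured.

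Levels are given as CPM: reads on the sense strand of a gene, per 1000000 such reads over all miRNA genes. Mir615 was the highest member, with 31533 counts or 9940 CPM in replicate 1 and 34320 counts or 9347 CPM in replicate 2. Its mean was 9643 CPM ± 419.8 (SD, n = 2), and it ranked 13 and 15 of the 1973 miRNA genes. Of those 1973 genes, 1295 had no sense count in either library. The libraries lay close together. Mir196b, the member next in order, had 15689 counts or 4946 CPM in replicate 1 and 11539 counts or 3143 CPM in replicate 2, a mean of 4044 CPM ± 1275 (SD, n = 2). It ranked 29 and 46.

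The miR-196a genes were lower by this count of reads at single positions. Mir196a-2 had 5042 counts or 1589 CPM in replicate 1 and 2316 counts or 631 CPM in replicate 2, a mean of 1110.1 CPM ± 678 (SD, n = 2). Its SD was large because replicate 1 stood far above replicate 2. Mir196a-1 had 70 counts or 22.1 CPM in replicate 1 and 47 counts or 12.8 CPM in replicate 2, a mean of 17.4 CPM ± 6.55 (SD, n = 2). The limit that a count of 0 (3 counts) sets was 0.946 CPM in replicate 1 and 0.817 in replicate 2, so Mir196a-1 was low but detected.

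The order Mir615, Mir196b, Mir196a-2, Mir196a-1 held in both libraries, and the values of neighbours in that order did not overlap. Small RNA reads cover a mature strand and not the whole hairpin, so CPM was not divided by length. Per 100 bases of hairpin the CPM order was the same, with 10805 and 10159 for Mir615, 5818 and 3697 for Mir196b, 1870 and 742 for Mir196a-2, and 21.6 and 12.5 for Mir196a-1 in replicates 1 and 2. Mir196a-2 had 72.0 counts for each count of Mir196a-1 in replicate 1 (95% interval 56.9 to 92.5) and 49.3 in replicate 2 (36.9 to 67.3). These intervals, like all below, cover counting error only. Each of the 2 hairpins has 1 arm found in no other hairpin of the RefSeq table, so both genes can receive reads of their own. Reads of miR-196a-5p that fit both genes are left out, so the quotients of 72.0 and 49.3 do not compare the output of the genes.

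**Figure D2:**
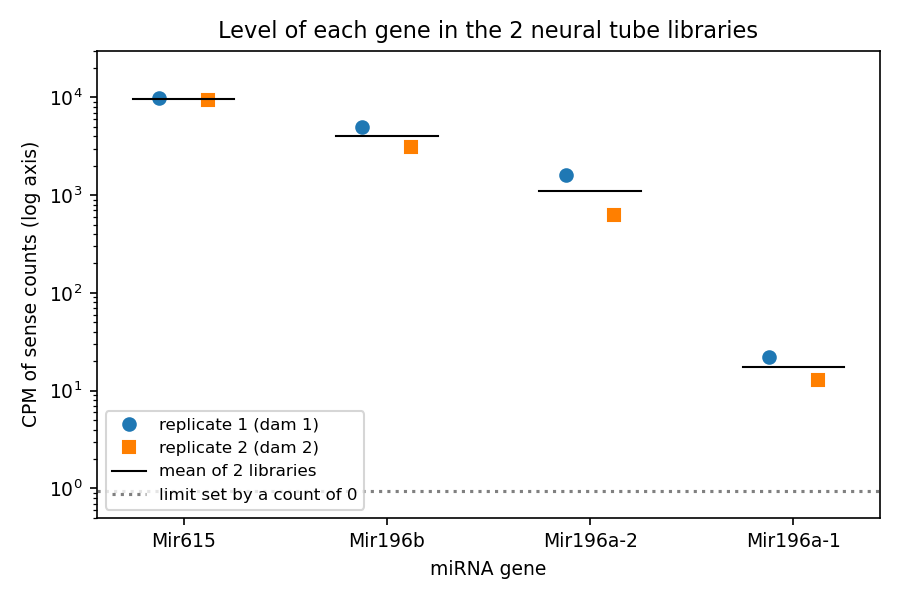
CPM of sense counts on a log axis for each gene in replicate 1 (circles) and replicate 2 (squares), with the mean of the 2 libraries as a bar and the larger limit set by a count of 0 as a dotted line. Mir615 is at 9940 and 9347 CPM and Mir196a-1 at 22.1 and 12.8 CPM, and replicate 1 is the higher of the libraries for each gene.

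Together the members took 1.65% of sense counts in replicate 1 and 1.31% in replicate 2. Mir615 alone made up 60.3% of this in replicate 1 and 71.2% in replicate 2. The 3 miR-196 genes took 0.656% and 0.379%, without the miR-196a-5p reads that fit both Mir196a-1 and Mir196a-2. The miR-10 genes, which lie beside the fourth-group Hox genes, were far more abundant by this count, at 40.3% and 35.7%. Mir10a had 16.7 counts for each count of Mir615 in replicate 1 (95% interval 16.5 to 16.9) and 17.3 in replicate 2 (17.1 to 17.5).

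All reads of the members came from the annotated strand. On the other strand 0 reads were counted at each of the 4 genes in both libraries. At Mir615 this allows an other-strand share of up to 0.00951% of its sense count in replicate 1 and 0.00874% in replicate 2. At Mir196a-1, with few reads, it allows up to 4.29% and 6.38%.

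Each member was higher in replicate 1, though by unequal amounts. Ratios between the libraries are log2 of replicate 1 over replicate 2 after TMM scaling, which trims genes of extreme ratio before it sets the library sizes, with an exact 95% binomial interval. Mir196a-2 stood at 1.55 (1.47 to 1.62), or 2.92-fold. It was the 1 of 4 members at least 2-fold apart. Of all 360 genes with at least 10 counts in a library, 12.2% were at least 2-fold apart in either direction: 4.44% were at least 2-fold higher in replicate 1 and 7.78% in replicate 2, where 0 of the 4 members were. Mir196a-1 lay just under the threshold at 0.99 (0.44 to 1.56) and passed it at 1.01 when scaled by DESeq2 size factors. Mir196b stood at 0.87 (0.83 to 0.90), or 1.82-fold.

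Mir615 was nearest to equal, at 0.30 (0.28 to 0.32), or 1.23-fold. The median over the 4 members was 0.93, against -0.02 over all 360 genes, of which 48.6% had a ratio above 0. Only 5 of the 360 genes had a higher ratio than Mir196a-2, each with a mean of at most 14.8 CPM. A higher ratio than Mir196a-1 was found for 16 genes, than Mir196b for 18 and than Mir615 for 76. Mir10b, at 0.50, and Mir10a, at 0.25, lay near Mir615. All 6 Hox miRNA genes were above 0, and 1 of the 6 was at least 2-fold apart, against 12.2% of all 360 genes.

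**Figure D3:**
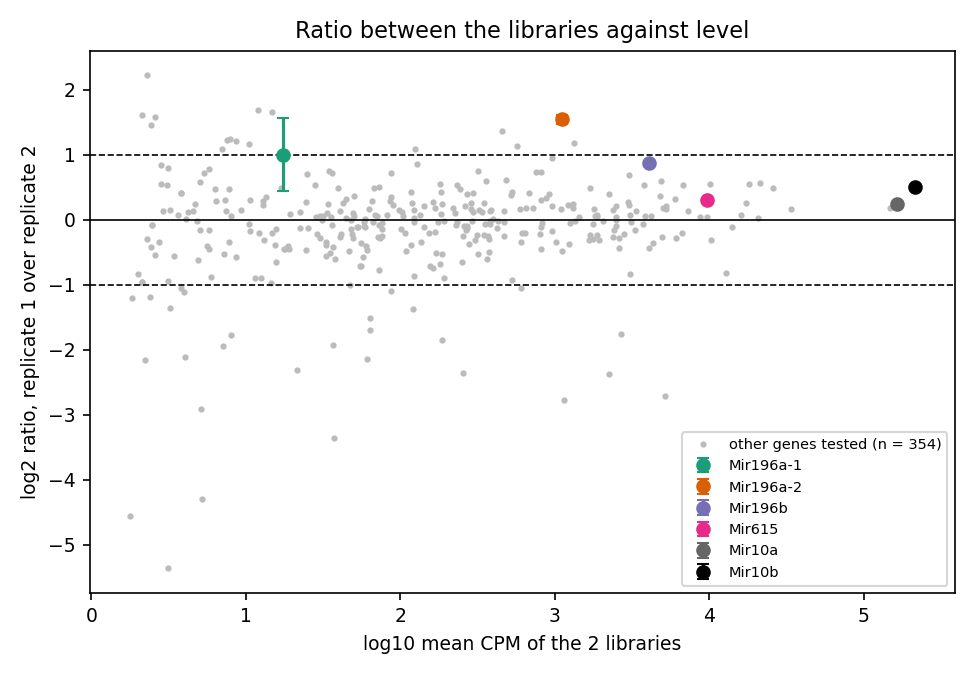
Log2 ratio of replicate 1 over replicate 2 against log10 mean CPM for the 360 genes tested; grey dots are genes outside the Hox clusters, coloured points the 6 Hox miRNA genes with exact 95% binomial intervals, and dashed lines mark 2-fold. Mir196a-2 at 1.55 is above the 2-fold line, and Mir615 at 0.30 is close to Mir10a at 0.25.

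Scaling sets the zero of these ratios. With scaling by total counts every ratio fell by about 0.21, which left Mir196a-2 at 1.33, Mir196a-1 at 0.78, Mir196b at 0.65 and Mir615 at 0.09. All 4 stayed above 0. Under that scaling 79.2% of the genes at least 2-fold apart were higher in replicate 2, against 63.6% with TMM.

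**Figure D4:**
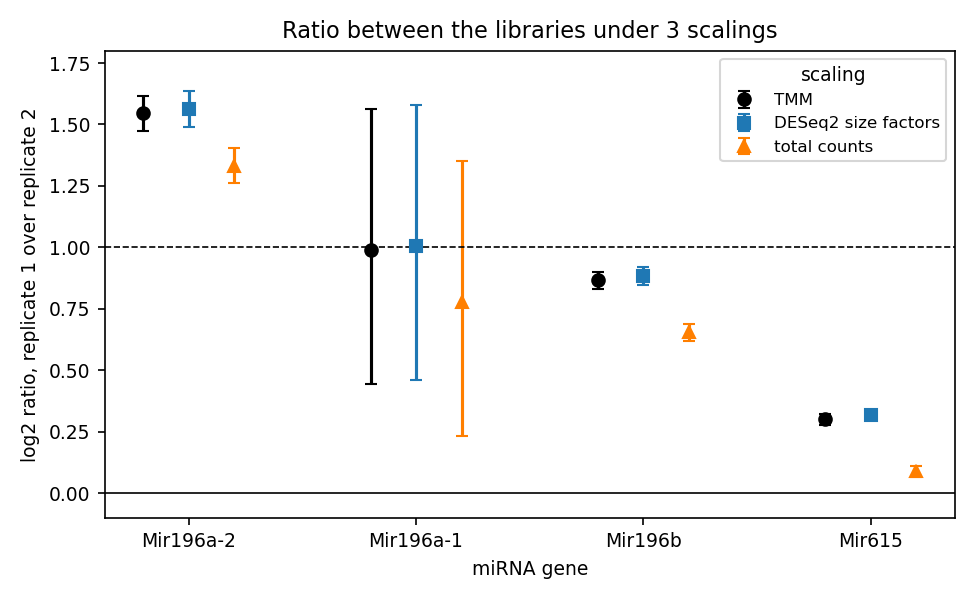
Log2 ratio of replicate 1 over replicate 2 for each gene under 3 scalings of the libraries, with exact 95% binomial intervals; the dashed line marks 2-fold. Mir196a-2 lies above 2-fold and Mir196b and Mir615 below it under each scaling, while Mir196a-1 lies on either side, between 0.78 and 1.01.

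Ratios between members within a library need no scaling. Mir196a-2 reached 16.0% of the count of Mir615, its neighbour in the Hoxc cluster, in replicate 1 and 6.75% in replicate 2. The log2 change of this quotient from replicate 2 to replicate 1 was 1.24 (95% interval 1.17 to 1.32). Both genes lie within 1 annotated transcript, and whether they are transcribed together was not tested. Mir196b reached 49.8% and 33.6% of the count of Mir615, a log2 change of 0.57 (0.52 to 0.61). For Mir196a-1 against Mir615 the log2 change was 0.70 (0.16 to 1.23). Each miR-196 gene was thus higher relative to Mir615 in replicate 1, beyond counting error.

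Among the miR-196 genes, Mir196a-2 against Mir196b gave a log2 change of 0.68 (0.60 to 0.76). Mir196a-1 against Mir196b gave 0.13 (-0.40 to 0.67), an interval that includes 0 but does not show that the genes moved alike. Mir196a-1 against Mir196a-2 gave -0.55 (-1.09 to -0.01). Of the 6 pairs of members, 5 had an interval without 0. The pairs are made from the same 4 genes, and at high counts such intervals are narrow. The share over all pairs of genes was not computed, so this count does not set the members apart. Against the miR-10 genes, Mir615 changed by 0.05 (0.03 to 0.08) relative to Mir10a and by -0.20 (-0.22 to -0.17) relative to Mir10b on the log2 scale. No replicate of either dam was at hand to set these changes against the spread within a litter.

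Of the let-7 list, which includes Mir98, 10 of 14 genes were in the count table, and 9 of these 10 had a RefSeq mature strand with the miR-196 seed letters at bases 3 to 9. The exception was Mirlet7a-2, while Mirlet7a-1 had such a strand. This describes the strands entered under each gene and not all that the gene may yield. All 10 were detected, meaning 10 or more counts in each library. Their log2 ratios ran from 0.32 to 1.36, with a median of 0.72. At least 2-fold higher in replicate 1 were 2 of 10, against 4.44% of all 360 genes tested. The highest by this count, Mirlet7g, had 28302 CPM in replicate 1 and 23292 CPM in replicate 2, above each miR-196 gene. Reads at several positions are not in these values, so they do not rank the mature strands. Mirlet7g had a log2 ratio of 0.49, below those of the miR-196 genes and above that of Mir615.

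Several marker lists of other cell types summed higher in replicate 2, opposite to the miR-196 genes. The sums are in CPM, while the log2 ratios use TMM scaling. Neural miRNAs, 11 of 14 in the table detected, had a sum of 17569 CPM in replicate 1 and 16495 CPM in replicate 2. Mir137 was the highest of them. Of the 12 neural genes tested, 8 had a log2 ratio above 0 and 4 below. At least 2-fold higher in replicate 1 were 2 of the 12, against 4.44% of all 360 genes tested. In replicate 2 it was 1 of the 12, against 7.78%. Below the detection threshold were Mir9-2 (5 and 4 counts), Mir124a-2 (4 and 13) and Mir124a-3 (7 and 5). Mir124a-1 was low, at 21 and 23 counts, and Mir9-1 was not in the table. Since reads at several positions are left out, low counts here do not show that a mature strand was scarce. Mesenchyme and cartilage miRNAs had 5 of 7 detected and summed to 3502 and 7561 CPM. Of the 6 tested, 5 were at least 2-fold higher in replicate 2, against 7.78% of all 360 genes tested. Mir143 had a log2 ratio of -1.76, while Mir140, the cartilage miRNA gene, stood at 0.00. Mir199a-1 was the mesenchymal marker at 0 counts in replicate 1. Sensory miRNAs, 3 of 3 detected, summed to 2109 and 15050 CPM, and the endothelial gene Mir126a stood at 8443 and 17271 CPM, a log2 ratio of -0.82 that is under 2-fold. Leukocyte miRNAs, 3 of 3 detected, summed to 125 and 232 CPM, and red blood cell miRNAs, 2 of 2, to 76.6 and 107 CPM. Epithelial miRNAs, 5 of 7, summed to 407 and 508 CPM, with Mir203 the highest. Of the 5 epithelial genes tested, 3 had a log2 ratio above 0 and 2 below. Skeletal muscle miRNAs were detected for 1 of 5 and summed to 45.4 and 53.1 CPM, with Mir133a-1 and Mir133a-2 at 0 in both. The detected gene, Mir206, had a log2 ratio of -0.01. The part of these differences in the higher miR-196 share of replicate 1 was not tested. In a bulk tissue, fewer cells of a type and less RNA per cell cannot be told apart.

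Genes of similar level in both libraries were found by distance over log2(CPM + 1) in the 2 libraries, which describes 2 values per gene. Nearest to Mir615 was Mir137, a neuronal miRNA gene, at 9594 and 9321 CPM (distance 0.05), followed by Mir181c and Mir149. Nearest to Mir196b were Mir382 (distance 0.26), Mir125a and Mir135b. Nearest to Mir196a-2 were Mirlet7f-2 (distance 0.44), Mir128-1 and Mir770. Each was also higher in replicate 1, but the choice used the same 2 values, so this is no separate result. Nearest to Mir196a-1 were Mir879 (distance 0.33), Mir1955 and Mir1247.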

How the data were processed

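The authors deposited 1 table of unnormalized read counts for each library, made from alignments to mm10 with annotation M4, per the accompanying text notes. The sources used here do not give the aligner, counter or filters. Every table has 3 columns of counts (either strand, sense strand, other strand) and 4 rows that name no gene, which stayed out of library sizes. In replicates 1 and 2, reads at several positions were 32.4% and 33.3% of all reads, unmapped reads 11.5% and 11.8%, and reads on no sense strand of a gene 2.75% and 3.01%.

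Sense counts totalled 3172235 of 5941830 reads in replicate 1 and 3671915 of 7074029 in replicate 2. CPM was computed here from them. Of 1973 identifiers, 1894 matched GENCODE M21 (GRCm38). Ratios used TMM factors from edgeR 4.0.16 in R 4.3.3, computed on 360 genes with at least 10 counts in a library, with a prior count of 0.5; called means at least 2-fold. Intervals are exact binomial (scipy 1.17.1), or for quotients of 2 genes from the summed reciprocal counts, and cover counting error only, since no molecular identifiers are stated. With 1 library per dam edgeR's quasi-likelihood test could not be fitted. The calculation was run on simulated counts that varied by counting error alone, which checks the arithmetic and not the spread between litters. Alternatives were other scalings (DESeq2 1.42.0 among them), filters, strand, denominators and prior counts. Mature strands were matched to RefSeq hairpins, where the plan named a genome, which was not used here. Seed complements were searched in 3′ UTRs of GENCODE M21 transcripts.

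The members and lists were chosen with earlier results of these data known. Named genes were the members, other miRNA genes within the Hox clusters, the 3 genes nearest each member, the highest let-7 gene and marker genes.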

Additional observations from a re-analysis of the deposited data

How the results depend on the processing

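Each member stayed higher in replicate 1 under every alternative run (scaling by total counts or DESeq2 size factors, reads on either strand, a prior count of 2), and Mir196a-2 stayed past 2-fold, also at 1.54 when summed with Mir196a-1. Scaling by total counts gave log2 ratios of 1.33 for Mir196a-2, 0.65 for Mir196b and 0.089 for Mir615, by its construction a shift of all genes by 0.21. With DESeq2 size factors 2 of 4 members were past 2-fold, since Mir196a-1 moved from 0.99 to 1.01. Of all 360 genes, 45 were past 2-fold under that scaling. Of all genes, 44 of 360 were past 2-fold, against 53 of 360 with scaling by total counts, 231 of 678 with at least 1 count, 28 of 329 with 10 counts or more in each library and 20 of 282 with at least 100 counts over both, as other numbers of genes were tested. Per all reads in the table, the means per 1000000 were 9.21 for Mir196a-1, 588 for Mir196a-2, 2136 for Mir196b and 5079 for Mir615, and the members summed to 0.781%. Without Mir10b in the denominator, Mir615 had 12322 CPM and the members summed to 1.90%. Without 1 replicate or the other, the values are those of the remaining library, such as 1.31% to 1.65% for the sum. With 2 libraries each lies within 1 SD of their mean by construction, so this says nothing of stability. Of the 44 alternative values that kept both libraries, 31 moved by less than the SD of the level, the interval of the ratio or, for counts of genes, 1.5 times. Some could hardly move. With 0 other-strand reads at the members, counting either strand changed only the scaling, and all 4 members passed each filter. The SD of 2 libraries is also wide: for Mir196a-2 it was 678, so 588 against 1110.1 counted as unmoved. The 31 is therefore no measure of stability. No paired analysis was possible because the series has 1 group. Depth limits Mir196a-1 most, at 70 and 47 counts.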
